A study of Mus musculus with 9 samples.

Results

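Glutamate and GABA are the main excitatory and inhibitory transmitters of the brain, and 9 genes that load, make, clear or recycle them were described here out of 18634 genes in the deposited table: *Slc1a2*, *Slc1a3*, *Slc6a11*, *Glul*, *Slc17a6*, *Slc17a7*, *Gad1*, *Gad2* and *Slc32a1*. They were taken by name. The cells came from brainstem, cortex and hypothalamus of wild-type male C57BL/6 mice (C57BL/6J in the methods) aged 9 to 11 weeks, killed at ZT12 (lights off) after normal sleep (NS), after 12 h of sleep deprivation (SD) that began at lights on, or after that deprivation followed by recovery sleep (RS). Recovery lasted 24 h by the methods, while the labels give 12 h in one place and 24 h in another. All groups shared a papain dissociation and a passage over myelin removal beads, tissue of 3 mice was pooled for each library, and each of the 9 combinations of region and sleep group was 1 library. No value therefore has a replicate within its combination. No test between groups was run, since 8 of the 9 libraries could not be tied to a region and sleep group.

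A UMI (unique molecular identifier) marks a captured transcript, and a level is the summed UMIs of a gene per 1000000 UMIs of the same cells (CPM) with exact Poisson 95% intervals. Shares of cells are those with at least 1 UMI, with exact Clopper-Pearson 95% intervals, and both kinds of interval cover counting error only. Only 3′ ends were counted and capture differs between genes, so a level was compared with that of the same gene elsewhere and not with the level of another gene. Libraries are numbered 1 to 9 by the order of their codes in the table. Library 7 was brainstem NS, since it alone held all 1999 barcodes that the study's list, used here in part, gives for that sample, against 5 to 13 in each other library. They are 53.6% of its 3731 cells, so shares of listed cells and UMIs cover these cells and not the whole library. The other 8 have no region or sleep group here. Their codes share a start in threes (1 to 3, 4 to 6 and 7 to 9), and the labels do not say what the starts mean. No region was taken from cell numbers or measured values. Libraries held 2575 to 3916 cells (median 3491) and 1522766 to 5488950 UMIs, with median depths of 402 to 1055 UMIs per cell. Pairs of libraries shared 5 to 25 cell barcodes. The growth hormone transcript *Gh* took 25.3%, 27.9% and 32.1% of the UMIs of libraries 4, 5 and 6 and at most 0.00755% of those of any other library, which lowers every other CPM there.

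Released glutamate is cleared from the synaptic cleft mainly by astrocytes through sodium-coupled transporters, converted to glutamine by glutamine synthetase and returned to neurons, where it is turned back into glutamate. Inhibitory neurons make GABA from glutamate by decarboxylation and pack it into vesicles, and plasma membrane GABA transporters take it up again after release. Excitatory neurons of different brain areas use different vesicular glutamate transporters, with *Slc17a7* typical of the cortex and *Slc17a6* of subcortical areas.

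On GRCm38 (GENCODE vM21), *Slc1a2* (GLT-1) lies at chr2:102658659-102790784 on the plus strand and *Slc1a3* (GLAST) at chr15:8634124-8710764 on the minus strand. Both encode plasma membrane glutamate transporters. *Slc6a11*, for a plasma membrane GABA transporter, lies at chr6:114131241-114249952, and *Glul*, for glutamine synthetase, at chr1:153899944-153909723, both on the plus strand. The neuronal genes are all on the plus strand. *Slc17a6* at chr7:51622006-51671119 and *Slc17a7* at chr7:45163949-45176142 encode vesicular glutamate transporters, *Gad1* at chr2:70553072-70602014 and *Gad2* at chr2:22622205-22693874 glutamate decarboxylases, and *Slc32a1* at chr2:158610767-158615748 the vesicular transporter that loads GABA and glycine. *Gad1* shares 10286 bases with an antisense gene, *Gad1os*. All 9 start-site windows were found in RefSeq (GRCm38.p6), of which the 250 bases before each start were used. The window of *Slc17a6* is 1 of 2 that RefSeq gives. Those of *Slc1a2* and *Gad1*, which are counted but not printed, lie 47779 and 9057 bases from the GENCODE start given above. Those of *Slc1a3* and *Slc6a11*, and of *Slc17a6* and *Slc17a7*, are printed because the levels of each pair part between libraries in what follows. The sequences run 5′ to 3′ on the gene's strand, for *Slc1a3* chr15:8710808-8711057, *Slc6a11* chr6:114130991-114131240, *Slc17a6* chr7:51621580-51621829 and *Slc17a7* chr7:45163671-45163920. Capitals mark matches, on either strand, to TATAAA or to CCAAT or to GGGCGG or to TGACG.
Slc1a3: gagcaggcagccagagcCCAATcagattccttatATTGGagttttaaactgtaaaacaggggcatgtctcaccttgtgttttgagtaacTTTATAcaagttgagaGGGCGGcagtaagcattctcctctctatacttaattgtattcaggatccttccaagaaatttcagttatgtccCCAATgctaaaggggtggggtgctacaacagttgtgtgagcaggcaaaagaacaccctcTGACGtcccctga
Slc6a11: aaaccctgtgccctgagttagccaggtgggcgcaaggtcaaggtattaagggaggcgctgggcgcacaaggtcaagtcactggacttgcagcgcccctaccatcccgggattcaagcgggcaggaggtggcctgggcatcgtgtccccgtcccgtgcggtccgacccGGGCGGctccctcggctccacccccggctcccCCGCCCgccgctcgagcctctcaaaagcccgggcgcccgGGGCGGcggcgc
Slc17a6: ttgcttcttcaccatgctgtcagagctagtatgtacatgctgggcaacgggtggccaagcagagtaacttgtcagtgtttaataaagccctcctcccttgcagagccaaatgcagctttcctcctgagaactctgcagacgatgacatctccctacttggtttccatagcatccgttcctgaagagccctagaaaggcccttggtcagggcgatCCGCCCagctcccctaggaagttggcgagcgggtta
Slc17a7: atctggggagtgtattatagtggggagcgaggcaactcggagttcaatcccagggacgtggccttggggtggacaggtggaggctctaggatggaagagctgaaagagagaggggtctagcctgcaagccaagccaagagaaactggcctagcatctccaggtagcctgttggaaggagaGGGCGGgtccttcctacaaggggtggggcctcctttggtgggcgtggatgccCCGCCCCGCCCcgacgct
Of all 32851 RefSeq windows of this length, 12.4% hold TATAAA, 33.9% hold CCAAT, 32.7% hold GGGCGG and 17.8% hold TGACG, against 2, 3, 6 and 2 of the 9 windows here in the same order. *Slc1a3* holds all 4 motifs, with 3 matches to CCAAT, in a window of 44.8% GC with 2 CpG. The *Slc6a11* window holds GGGCGG alone, 3 times, in 71.2% GC with 25 CpG, against a median of 52.4% GC and 6 CpG over all windows. The *Slc17a6* window has 1 match and 53.2% GC, while the *Slc17a7* window has 3, of which 2 overlap each other, and 61.2% GC. A match is a description of letters and not a binding site.

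The cell types of the brainstem NS library answer which cells carried each gene. In its 188 listed astrocytes, *Slc1a2* stood at 2153 CPM (1938 to 2386, 366 UMIs), *Slc1a3* at 1753 CPM (1560 to 1964, 298 UMIs) and *Slc6a11* at 1959 CPM (1754 to 2181, 333 UMIs). The single cell listed as Unknown, with 1489 UMIs of which 1 was *Slc1a2* and 1 *Glul*, was left out of the comparison of types. The highest of the other types was 14.1-fold lower for *Slc1a2* and 10.6-fold lower for *Slc1a3*, and the astrocyte intervals overlapped no other type for any of the 3 transporters. A UMI of *Slc1a2* was found in 73.9% of astrocytes (67.1% to 80.1%), of *Slc1a3* in 69.1%, of *Slc6a11* in 71.8% and of *Glul* in 72.9%. Among microglia, which were of similar depth (median 796 against 771 UMIs per cell), *Slc1a2* was found in 2.91% and *Slc6a11* in 2.19%. Astrocytes were 9.40% of the listed cells and held 86.9% of the listed UMIs of *Slc1a2* and 89.3% of those of *Slc6a11*. The label was checked against 12 astrocyte markers, all of which were higher in these cells than in the other listed cells, by at least 8.17-fold.

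Outside astrocytes the 3 transporters parted. *Slc1a2* came next in glutamatergic neurons at 152 CPM (65.9 to 300.6, 8 UMIs in 6 cells) and EPC (ependymocytes) at 88.0 CPM, and these neighbours overlapped. *Slc1a3* came next in microglia at 166 CPM (132 to 205, 84 UMIs in 69 cells), cells listed as pericytes at 142 CPM (87.9 to 217) and EPC at 112 CPM, which overlapped one another, while endothelial cells gave 13 UMIs in 573 cells. Of the UMIs of *Slc1a2* and *Slc1a3* together, *Slc1a3* made up 44.9% in astrocytes (41.0% to 48.8%), 83.2% in microglia (74.4% to 89.9%) and 95.5% in pericytes (77.2% to 99.9%). The intervals of the latter types lie above that of astrocytes. The listed pericytes were a mixed set, since 47 of the 168 fell in a cluster named fibroblast or leptomeningeal-like, and these held 19 of the 21 *Slc1a3* UMIs. In them the 6 fibroblast or leptomeningeal markers summed to 10417 CPM, against 591 CPM in the other 121. The 7 pericyte markers summed to 5676 CPM in the 47 cells, of which *Vtn* made up 5442 CPM. In the other 121 they summed to 20005.5 CPM, with *Vtn* at 7498 CPM. *Kcnj8*, *Abcc9* and *Notch3* were at 0 in the 47 cells. Listed microglia held 11 of the 12 astrocyte markers, at 256 CPM in sum against 18661 CPM in astrocytes, with *Htra1* at 0, and pericytes held 10 at 892 CPM, with *Cldn10* and *Slc4a4* at 0. The part of these in the levels was not tested. In the microglia-like, pericyte-like and fibroblast or leptomeningeal-like clusters over all libraries the share was 57.0%, 35.6% and 70.4%. Without a microglia-like cluster of 257 cells in which 11 of the 12 astrocyte markers passed too, an alternative chosen after seeing the data, the microglia-like share was 71.2%. By library it was 43.2%, 44.9% and 37.2% in libraries 1 to 3 (47.8%, 48.9% and 44.8% without that cluster), against 38.6%, 44.0% and 46.7% in their astrocyte-like cells. In libraries 4 to 9 it was 54.2% to 88.9%, and 70.7% to 91.7% without that cluster. *Slc6a11* was at most 57.2 CPM (11.8 to 167) in any type other than astrocytes, from 3 UMIs in glutamatergic neurons.

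*Glul*, which turns glutamate and ammonia into glutamine, was the least tied to astrocytes of the 4 glial genes. Its level was 1759 CPM in astrocytes (1565 to 1970), 1350.5 CPM in the 43 cells listed as oligodendrocytes (1117 to 1618) and 1311 CPM in endothelial cells (1224 to 1402), found in 57.8% of the latter. Astrocytes and listed oligodendrocytes overlapped, as did the latter and endothelial cells. The oligodendrocyte label went against the markers, since *Mag*, *Mobp*, *Ermn* and *Cnp* were at 0 UMIs in the 43 cells and *Cldn11* made up 727 of the 819.5 CPM of the 8 markers. Of these cells 38 fell in the fibroblast or leptomeningeal-like cluster, and they held 116 of the 117 *Glul* UMIs. Microglia at 919 CPM (837 to 1006) and listed pericytes at 886 CPM (740 to 1051) came next, and VSMCA, the vascular smooth muscle cells, were lowest at 159 CPM (118 to 210). Within the listed pericytes, the 47 cells of the fibroblast or leptomeningeal-like cluster held 118 of the 131 *Glul* UMIs, at 1970 CPM against 148 CPM in the other 121. Endothelial cells held 41.8% of the listed *Glul* UMIs, microglia 22.9% and astrocytes 14.7%. With cells of at least 1000 UMIs alone, listed pericytes were highest at 1629 CPM and astrocytes stood at 1435 CPM. In glutamatergic neurons 11 of the 23 *Glul* UMIs came from 1 cell.

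**Figure D1:**
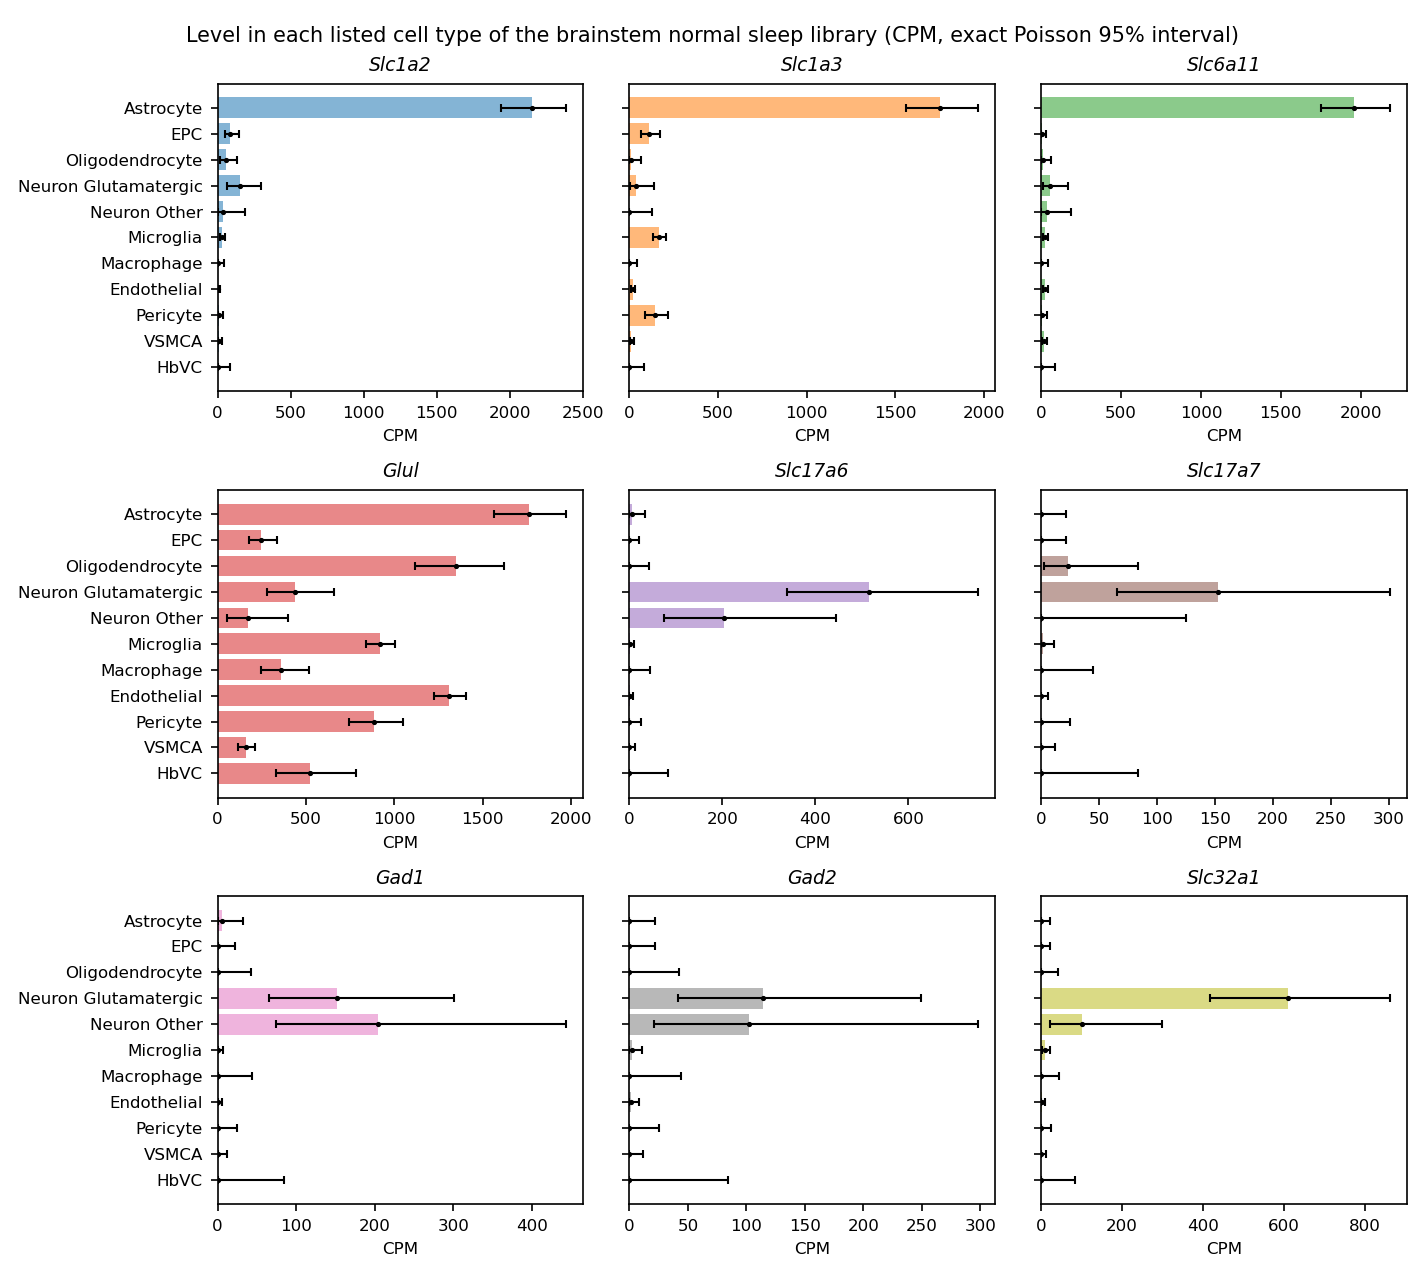
CPM of each gene (bars, horizontal axis, a scale of its own in each panel) in each listed cell type of the brainstem normal sleep library (vertical axis), with exact Poisson 95% intervals as error bars. The 3 plasma membrane transporters peak in astrocytes, *Glul* is spread over astrocytes, endothelial cells, microglia and the cells listed as oligodendrocytes and pericytes, of which 38 of 43 and 47 of 168 clustered as fibroblast or leptomeningeal-like, and the 5 genes of transmitter loading and synthesis stand in the neurons, *Slc32a1* at 610 CPM.

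The 5 neuronal genes were near 0 outside the 73 listed neurons. *Slc17a6* gave 33 UMIs in neurons and 3 in the other 1926 listed cells, *Slc17a7* 8 and 3, *Gad1* 14 and 1, *Gad2* 9 and 2, and *Slc32a1* 35 and 6. All 12 neuron markers were higher in neurons than in the other listed cells, by at least 7.62-fold. Within the neurons, those listed as glutamatergic (55 cells) carried the GABA-loading gene *Slc32a1* at 610 CPM (417 to 861, 32 UMIs in 15 cells), above the 102 CPM (21.0 to 298, 3 UMIs in 2 cells) of the 18 other neurons, and the intervals did not overlap. *Slc17a6* stood at 515 CPM (339 to 749) in the glutamatergic and 204 CPM (74.8 to 443.5) in the other neurons, which did overlap. *Gad1* (152 against 204 CPM) and *Gad2* (114 against 102 CPM) also overlapped between the kinds. *Slc17a7* was at 152 CPM (65.9 to 300.6, 8 UMIs in 5 cells) in glutamatergic neurons and at 0 UMIs in the others, which allows up to 102 CPM.

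Single cells among the 55 split by transmitter. A vesicular glutamate transporter (*Slc17a6* or *Slc17a7*) was found in 17 cells, and *Gad1*, *Gad2* or *Slc32a1* in 16 other cells. No cell had both, and 22 had neither. Median depth was alike, at 761, 781.5 and 687 UMIs. Thus 29.1% of the cells listed as glutamatergic carried a GABA gene with no vesicular glutamate transporter detected. *Slc17a6* and *Slc17a7* did not meet in any of the 55 cells either, with 12 and 5 cells. Of 15 cells with *Slc32a1*, 7 had a decarboxylase and 8 had none detected. *Slc6a5*, the glycine transporter of glycinergic neurons, was looked at after these values were seen, and gave 4 UMIs in 2 of the 55 cells. Over all 73 neurons the counts were 20, 19 and 0. In the clustering of all libraries, 45 of the 55 lay in an unnamed cluster of 576 cells led by *Syt2*, *Scn4b* and *Hapln4*, and 2 in clusters named neuron-like.

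A 4-fold difference with 10 CPM added to both sides stands in for a test where there is 1 library. By it, 3 of the 9 genes (*Slc1a2*, *Slc1a3* and *Slc6a11*) were higher in listed astrocytes than in the other listed cells, beside 3.54% of the 11676 genes with at least 10 UMIs. In neurons it was 5 of 9 (*Slc17a6*, *Slc17a7*, *Gad1*, *Gad2* and *Slc32a1*), beside 6.8% of genes. These 5 had 3, 3, 1, 2 and 6 UMIs in the other listed cells, so they reached 10 UMIs only through the neurons. The filter thus let them in by the group where they are high, and their count is no separate evidence. *Glul* was past the 4-fold line in neither astrocytes nor neurons. Of 40 other genes of glutamate and GABA transport, metabolism and reception, 34 had enough UMIs, of which 11 were past the fold in astrocytes and 20 in neurons. Their median log2 ratio was 0.06 in astrocytes and 2.52 in neurons, against -0.19 and -0.35 over all genes.

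Among the other transporters, *Slc1a4*, a neutral amino acid transporter, stood at 106 CPM in astrocytes against 9.14 CPM in the other cells (6.06-fold). None of 5 glutamine carriers was past the fold in astrocytes, and *Slc38a2*, which imports glutamine and other amino acids, stood at 23.5 CPM there against 133 CPM elsewhere. *Slc38a3*, also a glutamine carrier, was just under the line at 194 against 42.3 CPM (3.90-fold) and is named after its values were seen. *Slc38a1*, a glutamine importer of neurons, was the carrier higher in neurons, at 354 against 42.5 CPM.

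Of 6 metabolic enzymes, the GABA-degrading *Abat* (88.3 against 14.4 CPM) and *Aldh5a1* (52.9 against 5.29 CPM) were past the fold in astrocytes, while *Glud1*, glutamate dehydrogenase, missed it at 224 against 55.8 CPM. *Got1* and *Got2*, the aspartate aminotransferases, were past it in neurons at 110 and 195 CPM. Receptors made up most of the neuronal genes. Past the fold in neurons were 9 of 10 glutamate receptor genes, among them *Grin1*, the obligate NMDA receptor subunit (43.9-fold), *Grin2b* (10.7-fold) and the AMPA receptor gene *Gria2* (15.3-fold), and 8 of 9 GABA receptor genes, among them *Gabbr1* (15.05-fold). Others were *Gria1*, *Gria3*, *Gria4*, *Grin2a*, *Grm5* and *Grm7*, and *Gabra2*, *Gabra3*, *Gabrb1* and *Gabbr2*. Astrocytes had 3 glutamate receptor genes (*Gria1*, *Gria2* at 13.5-fold and *Grm3*) and 4 GABA receptor genes (*Gabra2*, *Gabrb1* at 17.1-fold, *Gabrg1* and *Gabbr2*).

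Over the cells of each of the 9 libraries, *Slc1a2* stood at 1504.5, 1329.5 and 986 CPM in libraries 1 to 3, at 102, 203 and 36.8 CPM in libraries 4 to 6 and at 179, 306 and 305 CPM in libraries 7 to 9. Its share of cells was 42.4%, 43.1% and 54.0%, then 7.53%, 10.6% and 4.03%, then 9.89%, 14.04% and 19.4%. Libraries 1 to 3 were thus the highest and their intervals overlapped none of the others. *Slc1a3* followed at 809, 818 and 584 CPM, then 134, 273 and 57.0 CPM, then 182, 263 and 244 CPM, with libraries 1 and 2 overlapping. *Slc6a11* took another order, at 92.6, 76.5 and 58.6 CPM, then 86.5, 132 and 31.9 CPM, then 144, 255 and 189.5 CPM. Library 8 was highest for it and library 6 lowest for all 4 glial genes. *Glul* stood at 1309, 1660.5 and 957 CPM, then 327, 473 and 233 CPM, then 818.5, 926 and 624 CPM.

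*Slc17a7* varied most, at 682, 731 and 839 CPM in libraries 1 to 3 against 1.01, 0 and 1.64 CPM in libraries 4 to 6 and 3.82, 11.9 and 10.5 CPM in libraries 7 to 9. With 3 counts as the floor of library 5, library 3 was at least 594-fold higher. *Slc17a6* stood at 7.88, 12.4 and 13.1 CPM, then 23.4, 54.7 and 13.8 CPM, then 15.3, 26.2 and 14.4 CPM, and only library 5 stood clear of all the others. *Gad1* stood at 39.4, 24.8 and 29.4 CPM, then 17.2, 25.4 and 6.74 CPM, then 8.10, 6.39 and 9.64 CPM. *Gad2* was highest in libraries 4 and 5, which overlapped at 41.6 and 35.8 CPM, and stood at 22.3, 23.3 and 23.7 CPM in libraries 1 to 3, 11.7 CPM in library 6 and 6.07, 8.13 and 5.54 CPM in libraries 7 to 9. *Slc32a1* was lowest in library 6 at 2.92 CPM and highest in library 7 at 17.1 CPM (in library 5 by the mean over cells or without the hormone genes in the total, and in library 1 with cells of at least 1000 UMIs), with 14.4, 6.72, 7.63, 10.1, 16.5, 13.1 and 6.77 CPM in libraries 1 to 5, 8 and 9. Most of its intervals overlapped.

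**Figure D2:**
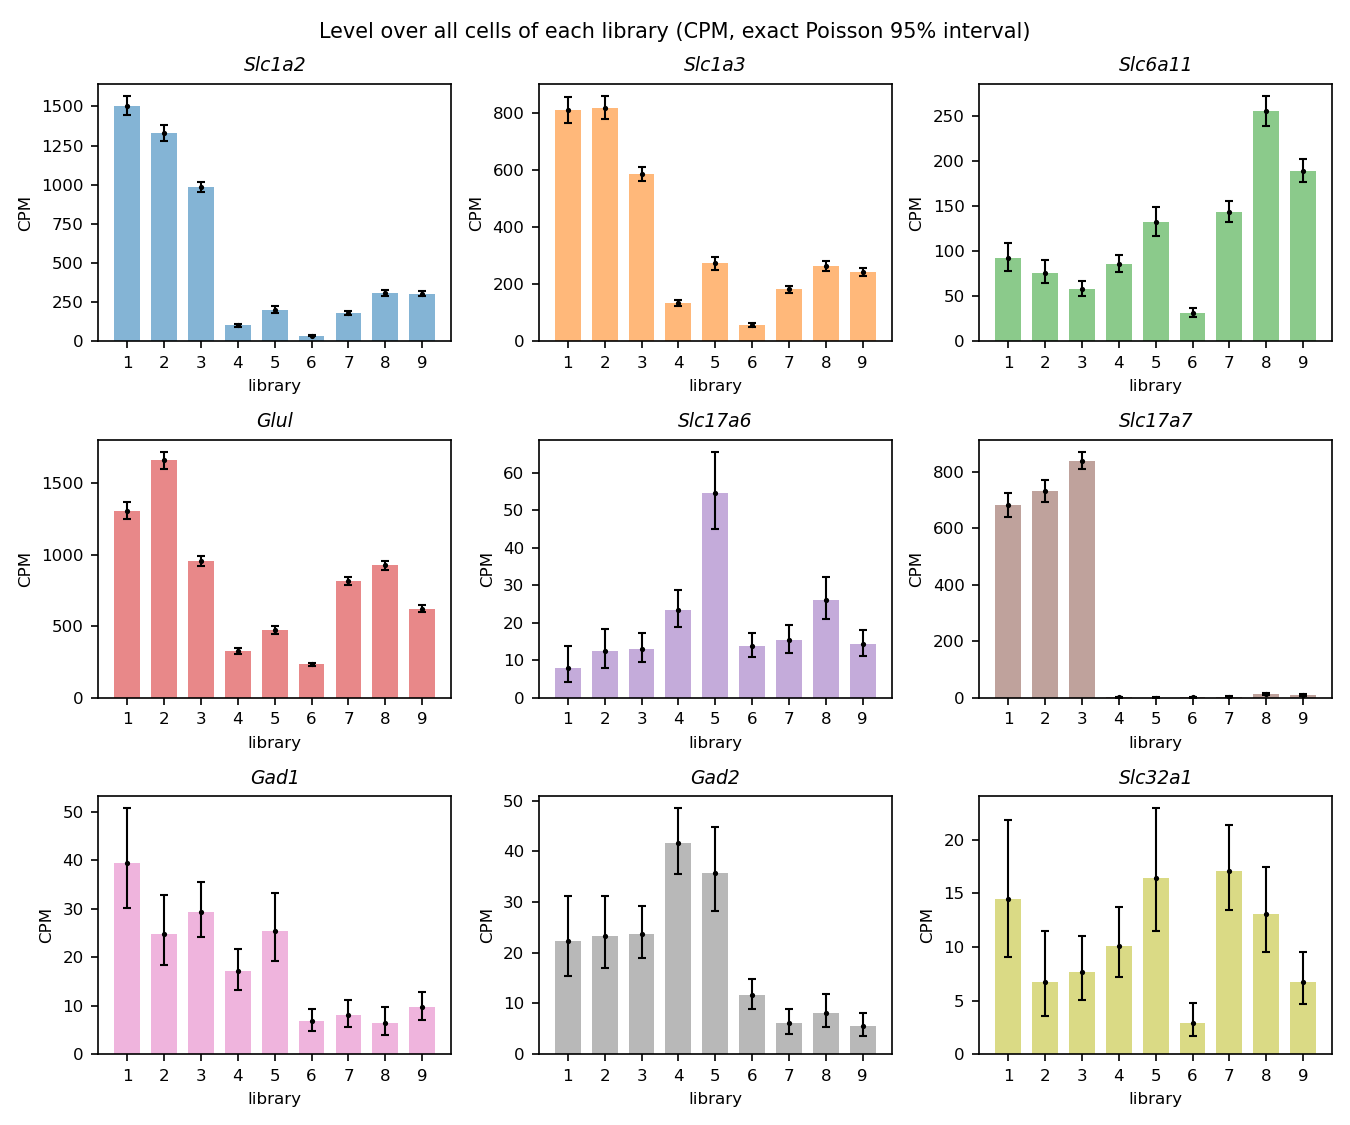
CPM of each gene over all cells (vertical axis, a scale of its own in each panel) in libraries 1 to 9 (horizontal axis), with exact Poisson 95% intervals. *Slc1a2*, *Slc1a3* and *Slc17a7* are highest in libraries 1 to 3, *Slc6a11* in library 8 and *Slc17a6* in library 5.

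By the 4-fold rule, 5 of the 9 genes (*Slc1a2*, *Slc1a3*, *Slc6a11*, *Glul* and *Slc17a7*) differed between their highest and lowest library, beside 11.6% of 16813 genes. Without libraries 4, 5 and 6 it was 3 of 9 (*Slc1a2*, *Slc1a3* and *Slc17a7*), beside 8.38%. Between libraries of one code start, where the ratio of highest to lowest cannot exceed that over all 9, 0 of the 9 genes were past the fold over all cells among libraries 1 to 3 or 7 to 9, and 2 (*Slc1a2* and *Slc1a3*) were among libraries 4 to 6, beside 0.0436%, 0.0661% and 0.309% of genes. In neuron-like cells, a class named from clusters of all libraries, it was 0 among libraries 1 to 3, 1 (*Slc1a3*) among 4 to 6 and 3 (*Slc1a2*, *Slc1a3* and *Slc17a7*) among 7 to 9, beside 0.0169%, 1.01% and 9.2%. The last 3 rest on library 7, with 29 such cells, 2 UMIs of *Slc1a2* and 0 of the others, where 3 counts would be 52.1 CPM. The highest *Slc17a7* and *Slc1a3* levels there, at 49.3 and 57.5 CPM in library 9, are below or close to that floor, so these calls show no 4-fold difference. With the *Syt2* cluster added *Slc17a7* stood at 72.0, 124.8 and 156.9 CPM in libraries 7 to 9. In astrocyte-like cells, named likewise, it was 0 of 9 in each, beside 0.0737%, 36.3% and 0.526%. Over all cells *Slc1a2* differed 1.53-fold among libraries 1 to 3, 5.52-fold among 4 to 6 and 1.71-fold among 7 to 9.

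Over all cells, fewer cells of a type and less RNA per cell cannot be told apart, so the cells were clustered and each class was measured on its own. The 9 genes and the other genes of the pathway were left out of the genes that formed the clusters. Astrocyte-like cells made up 40.6%, 38.7% and 31.4% of libraries 1 to 3, 4.50%, 8.43% and 0.383% of libraries 4 to 6 and 8.58%, 13.6% and 10.3% of libraries 7 to 9. They held 64.7% of all *Slc1a2* UMIs, 69.3% of *Slc1a3*, 66.3% of *Slc6a11* and 40.7% of *Glul*. Endothelial-like cells held a further 16.9% of *Glul* and microglia-like cells 11.0%. Neuron-like cells numbered 583, 867 and 1067 in libraries 1 to 3, 309, 417 and 173 in libraries 4 to 6 and 29, 74 and 66 in libraries 7 to 9. They held 91.4% of *Slc17a7*, 83.8% of *Gad1*, 79.4% of *Gad2*, 64.2% of *Slc17a6* and 52.0% of *Slc32a1*, while unnamed clusters held 31.2% of *Slc32a1* and 19.8% of *Slc17a6*.

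Within astrocyte-like cells the glutamate transporters differed less between libraries than over all cells. *Slc1a2* stood at 3840, 3453 and 3211 CPM in libraries 1 to 3, at 2146, 2578 and 2005 CPM in libraries 4 to 6 and at 2346, 2341 and 2238 CPM in libraries 7 to 9. The 40.9-fold span over all cells thus shrank to 1.92-fold, and the intervals of libraries 4 to 9 overlapped one another. Each of libraries 1 to 3 lay above each of libraries 4 to 9 with no overlap, and the share of all genes that do so is not given here. In the cells of at least 1000 UMIs, which are 3 to 116 per library, *Slc1a2* stood at 6467, 4153 and 3775 CPM, then 1242, 2463 and 1021 CPM, then 2459, 2310 and 2273 CPM, and was then past the 4-fold line, beside 97.3% of genes. *Slc1a3* stood at 2410, 2713 and 2814 CPM, then 2309, 2866 and 1930.5 CPM, then 1774, 1775 and 1429 CPM, a span of 2.01-fold from library 5 to library 9. Library 9 was the lowest for it, and its interval reached only that of library 6. Library 6 had 15 astrocyte-like cells, so its values rest on 11 to 27 UMIs for the 4 glial genes.

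*Slc6a11* ran the other way. In astrocyte-like cells it stood at 269.5, 241 and 239 CPM in libraries 1 to 3 (118 to 159 UMIs each), at 1353, 1489.5 and 891 CPM in libraries 4 to 6 and at 1979, 2086 and 1444.5 CPM in libraries 7 to 9. Each of the first 3 lay below each of the other 6, and no interval of the first 3 reached any of the others. The share of all genes that part the libraries so in astrocyte-like cells is not given here. The share of astrocyte-like cells with a UMI was 10.2%, 8.87% and 16.96%, then 51.6%, 44.7% and 40.0%, then 72.8%, 69.3% and 64.1%. In cells thinned to 500 UMIs it was 11.2%, 7.14% and 11.3%, then 46.1%, 42.9% and 26.7%, then 56.5%, 60.1% and 50%. Microglia-like cells, which should lack this transporter, had a UMI in 0.879% to 10.8% of cells per library, with median depths of 311 to 1030 UMIs against 362 to 864 UMIs in astrocyte-like cells. Without the microglia-like cluster in which astrocyte markers passed too, these shares were 0.461% to 4.40%. From library 3 to library 8 the level differed 8.72-fold. The summed level of the 12 astrocyte markers in the same cells was 19556 to 24984 CPM in libraries 1 to 3 and 12994 to 21705 CPM in the others, and that of the 12 neuron markers 762 to 1015 CPM and 322 to 2599 CPM. The part of these in the result was not tested. In the cells of at least 1000 UMIs, *Slc6a11* stood at 122, 366 and 167 CPM, then 658, 274 and 1021 CPM, then 1520, 1179 and 1090 CPM. There library 2 lay above library 5, from 3 UMIs and 1 UMI, so the separation of libraries 1 to 3 from libraries 4 to 6 did not hold.

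Different clusters held most astrocyte-like cells of the libraries. Cluster 1, led by *Htra1*, *Pantr1* and *Ppp1r3g*, had 853 to 1193 cells of each of libraries 1 to 3 and 1 to 35 of each other library. Cluster 9, led by *Agt*, *Itih3* and *Slc6a11* itself, had 8 to 36 cells of libraries 1 to 3 and 14 to 467 of the others. *Slc6a11* stood at 265.5 CPM in cluster 1 and 1749.5 CPM in cluster 9. Within cluster 1 it was 269, 235 and 239 CPM in libraries 1 to 3 and 822.5, 467, 1141, 933 and 773 CPM in libraries 4, 5, 7, 8 and 9, from 5 to 16 UMIs each. Within cluster 9 it was 292, 453 and 292 CPM in libraries 1 to 3, from 2 to 6 UMIs each, and 968.5 to 2112 CPM in libraries 4 to 9. Library 6 had 1 cell in cluster 1, with 0 *Slc6a11* UMIs of 1078. Apart from that cell, libraries 1 to 3 lay lower inside each cluster too, though some of these intervals overlapped.

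*Glul* in astrocyte-like cells stood at 3379, 4790 and 3642.5 CPM, then 2014, 2609 and 817 CPM, then 1891, 3139 and 1815 CPM. Library 2 was the highest and stood clear of all others. In libraries 7 to 9, library 8 stood 1.73-fold above library 9 with no overlap. Outside astrocytes *Glul* stood at 885 to 1853 CPM in the endothelial-like cells of the 9 libraries, at 366 to 1483 CPM in microglia-like cells (377 to 1011 CPM without the cluster that passed astrocyte markers) and at 104 to 238 CPM in neuron-like cells. By the 4-fold rule *Slc6a11*, *Glul* and *Slc17a7* differed between libraries in astrocyte-like cells, beside 51% of genes. With the 8 libraries that had at least 50 such cells it was *Slc6a11* and *Slc17a7*, beside 15.1%.

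**Figure D3:**
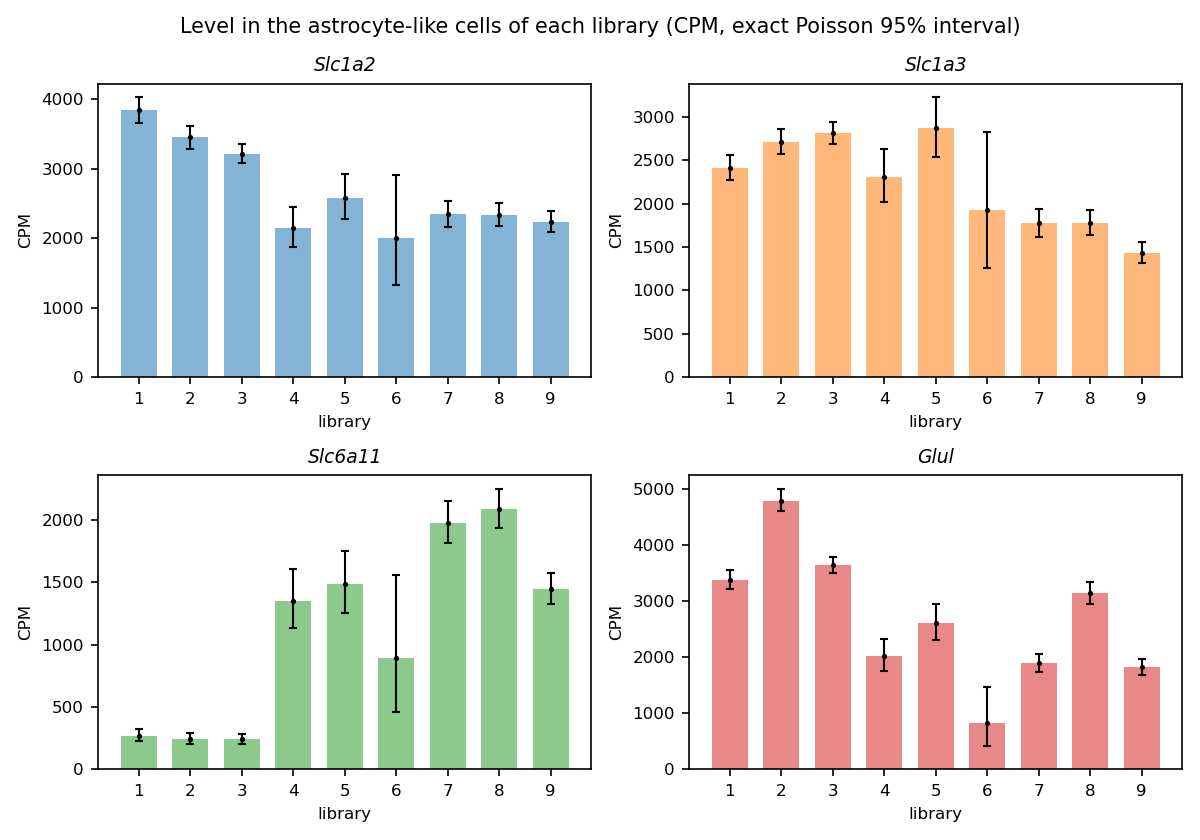
CPM of the 4 glial genes (vertical axis) in the astrocyte-like cells of libraries 1 to 9 (horizontal axis), with exact Poisson 95% intervals. *Slc6a11* stays at or below 269.5 CPM in libraries 1 to 3 and reaches 2086 CPM in library 8, while *Slc1a2* spans 1.92-fold.

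In neuron-like cells the vesicular glutamate transporters changed places between libraries. *Slc17a7* stood at 1410, 1346 and 1275 CPM in libraries 1 to 3, found in 69.6%, 68.2% and 85.4% of cells. It gave 0 UMIs in libraries 4, 5, 6 and 7, where 3 counts would be 10.1 CPM in library 4 and 52.1 CPM in library 7, and 6.60 and 49.3 CPM in libraries 8 and 9 (1 and 6 UMIs). The neuron-like class of library 7 was 29 cells and left out the 156 cells of the unnamed *Syt2* cluster. With that cluster added *Slc17a7* stood at 72.05, 124.8 and 156.9 CPM in libraries 7 to 9. Against the floor of library 4, library 1 was at least 139-fold higher. *Slc17a6* stood at 17.6, 24.1 and 18.4 CPM in libraries 1 to 3, at 210, 366 and 332 CPM in libraries 4 to 6 and at 156, 356 and 230 CPM in libraries 7 to 9. No interval of the first 3 libraries reached any of the other 6, for either gene. How many of all genes part the libraries in this way is not given here. In microglia-like cells, from which doublets were not removed, *Slc17a7* also followed the libraries. It stood at 144, 295 and 288 CPM in libraries 1 to 3 and at 2.13, 3.88 and 5.32 CPM in libraries 7 to 9. Part of its UMIs thus lay outside the neuron-like class. The microglia-like cells of libraries 4 to 6 gave 0 UMIs, where 3 counts would be 37.0, 59.9 and 99.7 CPM. Astrocyte-like cells gave 62.4, 75.6 and 81.2 CPM in libraries 1 to 3, 0 UMIs in libraries 4 to 7, where 3 counts would be 30.5, 30.8, 222.8 and 11 CPM, and 11.7 and 18.5 CPM in libraries 8 and 9. Neuron markers summed to 2052, 3935 and 3717 CPM in those microglia-like cells, with *Resp18* at 0 in library 2, and to 215 to 6115 CPM in those of libraries 4 to 9. The part of these in the *Slc17a7* level was not tested.

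The GABA genes were lower in neuron-like cells of libraries 1 to 3. *Gad1* stood at 73.4, 44.0 and 42.4 CPM there, at 203, 181 and 201 CPM in libraries 4 to 6 and at 399, 105.5 and 263 CPM in libraries 7 to 9. *Gad2* stood at 42.5, 43.0 and 34.5 CPM, then 477, 257 and 195.5 CPM, then 191, 138.5 and 131.5 CPM. *Slc32a1* stood at 24.9, 8.39 and 8.31 CPM, then 115, 106 and 77.0 CPM, then 139, 85.8 and 164 CPM. Every one of libraries 4 to 9 was above every one of libraries 1 to 3 for all 3 genes, and the intervals were apart for *Gad2* and *Slc32a1*, while for *Gad1* those of libraries 1 and 8 overlapped. The share of all genes that part libraries 1 to 3 from libraries 4 to 9 in neuron-like cells is not given here. By the 4-fold rule 8 of the 9 genes differed between libraries in neuron-like cells, all but *Glul*, beside 27.2% of genes.

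Clusters 7 and 13, led by *Nrgn*, *Itpka* and *Slc17a7* and by *Slc17a7*, *Camk2a* and *Mir124a-1hg*, held most neuron-like cells of libraries 1 to 3, and cluster 11, led by *Gad2*, *Gad1* and *Calb2*, most of those of libraries 4 to 9. The unnamed *Syt2* cluster, with 156, 113 and 80 cells in libraries 7, 8 and 9, was added in an alternative chosen after seeing the data. By the 4-fold rule 7 of 9 genes then differed between libraries, beside 18.4% of genes, without *Slc6a11*. *Slc17a7* then stood at 72.0, 124.8 and 156.9 CPM instead of 0, 6.60 and 49.3 CPM in libraries 7, 8 and 9 and stayed at 0 UMIs in libraries 4 to 6. *Slc32a1* then stood at 309, 158 and 133 CPM and *Slc17a6* at 278, 337 and 252 CPM in libraries 7 to 9, *Gad1* at 170, 79.1 and 171 CPM and *Gad2* at 108, 108 and 85.6 CPM. *Gad1* in library 8 was then close to its 75.7 CPM in library 1.

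**Figure D4:**
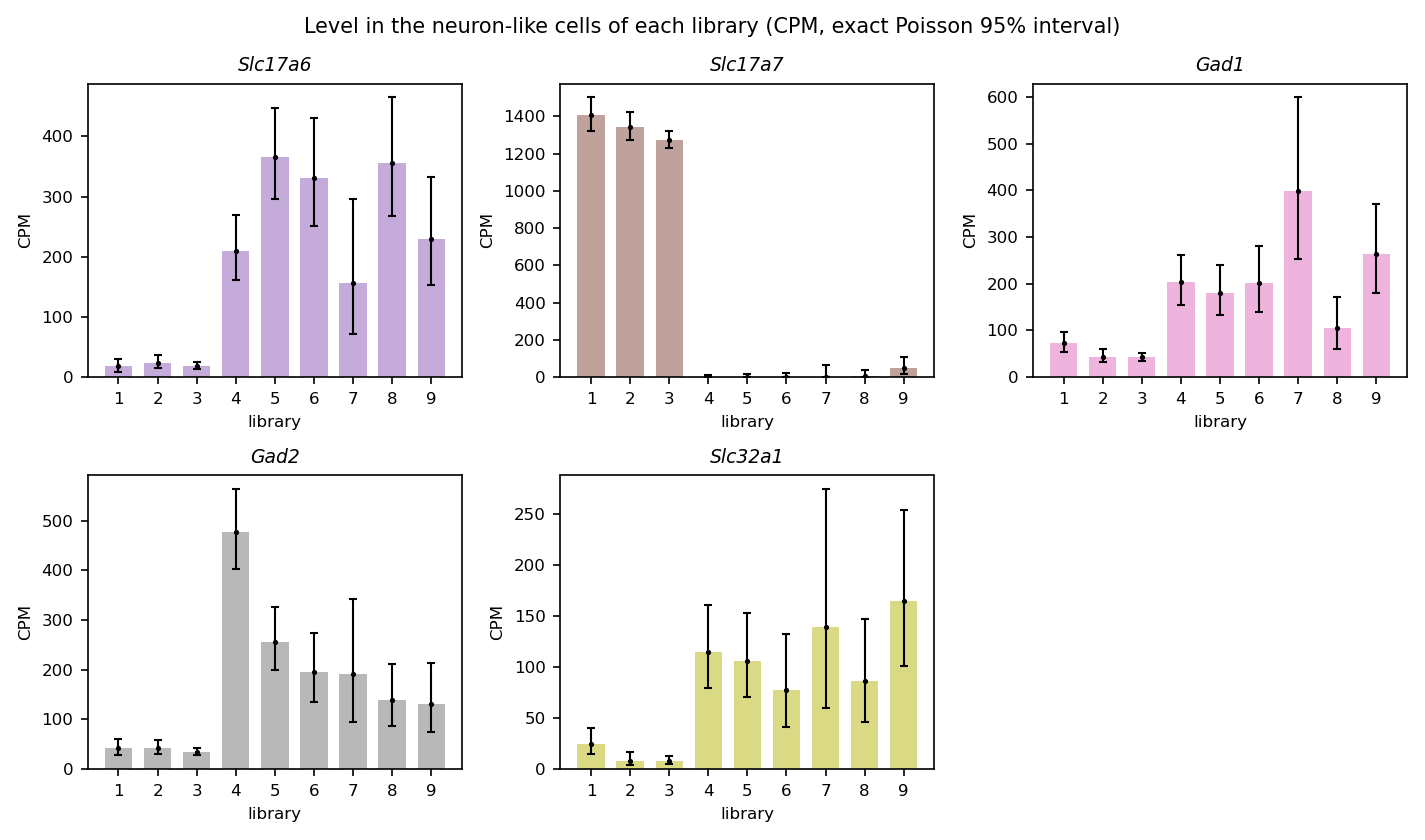
CPM of the 5 neuronal genes (vertical axis, a scale of its own in each panel) in the neuron-like cells of libraries 1 to 9 (horizontal axis), with exact Poisson 95% intervals. *Slc17a7* stands at 1275 to 1410 CPM in libraries 1 to 3 and at 0 to 49.3 CPM in the others, and *Slc17a6* at 17.6 to 24.1 CPM and 156 to 366 CPM. The unnamed *Syt2* cluster is left out, and with it *Slc17a7* stands at 72.05, 124.8 and 156.9 CPM in libraries 7 to 9.

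The astrocytic transporter *Slc1a2* was also found in neuron-like cells, at 533, 535 and 471 CPM in libraries 1 to 3, at 77.8, 113 and 71.1 CPM in libraries 4 to 6 and at 34.7, 442 and 123 CPM in libraries 7 to 9. Libraries 1 to 3 stood above libraries 4 to 7 and 9. In library 8, 22 of the 67 UMIs came from 1 cell, and the level without it was 320 CPM. The share of cells with a UMI after thinning to 500 UMIs was 21.5%, 21.8% and 19.7% in libraries 1 to 3 and 11.1% in library 8. *Slc1a3* did not share this pattern, at 52.8, 59.7 and 34.5 CPM, then 60.9, 106 and 17.8 CPM, then 0, which allows up to 52.1 CPM, 33.0 and 57.5 CPM. In libraries 1, 2 and 3 *Slc1a3* made up 9.02%, 10.1% and 6.83% of the UMIs of both genes in neuron-like cells, with an upper bound of 12.8% at most, against 33.3%, 33.0% and 29.0% in endothelial-like cells, with a lower bound of 21.9% at least. In the astrocyte-like cells of libraries 1 to 3 the share was 38.6%, 44.0% and 46.7%, above that of the neuron-like cells of each. In neuron-like cells of libraries 4 and 5 it was 43.9% and 48.3%, while in libraries 6 to 9 it was 3 of 15, 0 of 2, 5 of 72 and 7 of 22 UMIs. Over all libraries the shares were 9.99% (8.80% to 11.3%) in neuron-like and 37.2% (34.0% to 40.5%) in endothelial-like cells. Astrocyte markers summed to 791, 900 and 626 CPM in the neuron-like cells of libraries 1 to 3, with 11, 12 and 12 of 12 detected and *Agt* at 0 in library 1, and to 598 to 1147 CPM in those of libraries 4 to 9. Their part in the level of *Slc1a2* was not tested.

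Few of all neuron-like cells held genes of both transmitters. Among 3585 cells, 2132 had *Slc17a6* or *Slc17a7* and 356 had *Gad1*, *Gad2* or *Slc32a1*, and 22 had both (1.03% of the former, 6.18% of the latter). Thinned to 500 UMIs, the counts were 1140, 231 and 8 of 3015 cells. Among the 1813 cells of at least 1000 UMIs they were 1372, 154 and 18, which is 1.31% and 11.7%. Libraries 1 to 3 had 583, 867 and 1067 of the 3585 cells. There 2, 5 and 11 cells had both, beside 21, 20 and 23 with a GABA gene alone and 408, 592 and 908 with a glutamate gene alone. In each of libraries 4 to 9 at most 1 cell had both, beside 7 to 108 with a GABA gene alone and 4 to 77 with a glutamate gene alone. Doublets were not removed from the neuron-like cells, since the caller marked 0.484% of all cells, a share too low to rely on. *Slc17a6* and *Slc32a1* were found in 272 and 116 neuron-like cells and in 437 and 213 of all cells, and never in the same cell. *Slc17a6* and *Slc17a7* shared 53 neuron-like cells, all in libraries 1 to 3, where 8 of 12, 13 of 19 and 32 of 40 cells with *Slc17a6* also had *Slc17a7*. These shares are close to those of *Slc17a7* among all neuron-like cells of libraries 1 to 3, at 69.6%, 68.2% and 85.4%. In the neuron-like cells of libraries 4 to 7 *Slc17a7* was not detected, and in libraries 8 and 9 it was found in 1 and 4 cells, so an overlap could hardly be seen there. In the unnamed *Syt2* cluster 3 cells of library 8 and 7 of library 9 had both, beside 15 and 8 with *Slc17a6* alone and 11 and 5 with *Slc17a7* alone. In library 7, its largest part, 22 had *Slc17a6* alone, 8 *Slc17a7* alone and 0 both. *Gad1* and *Gad2* shared 102, which is 55.4% of those with *Gad1* and 43.4% of those with *Gad2*. Of the 116 with *Slc32a1*, 77 also had a decarboxylase.

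Cells with a glutamate gene and no GABA gene were 70.0%, 68.3% and 85.1% of the neuron-like cells of libraries 1 to 3, 13.3%, 18.5% and 21.4% in libraries 4 to 6 and 13.8%, 32.4% and 28.8% in libraries 7 to 9. Cells with a GABA gene alone were 3.60%, 2.31% and 2.16%, then 34.9%, 20.6% and 23.1%, then 24.1%, 17.6% and 24.2%. Glutamate cells outnumbered GABA cells in libraries 1, 2 and 3, by 592 to 20 in library 2, while in library 4 GABA cells were more, by 108 to 41. In libraries 5 to 9 the intervals of the shares overlapped, as in library 9 (18.3% to 41.2% and 14.5% to 36.4%). With the *Syt2* cluster added, glutamate cells were more than GABA cells in library 8, by 53 to 28 of 187 (22.0% to 35.4% against 10.2% to 20.9%), with no overlap, and stood at 39 to 20 of 146 in library 9 and 34 to 37 of 185 in library 7, where the intervals overlapped. Cells with neither ranged from 11.7% in library 3, where the median depth of neuron-like cells was highest at 1778 UMIs, to 60.9% in library 5, where it was lowest at 545 UMIs. The share was 50% and 45.5% in libraries 8 and 9, at 1506 and 1574 UMIs, and 26.1% and 28.8% in libraries 1 and 2, at 982 and 889 UMIs. The part of depth in the share with neither was not tested.

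**Figure D5:**
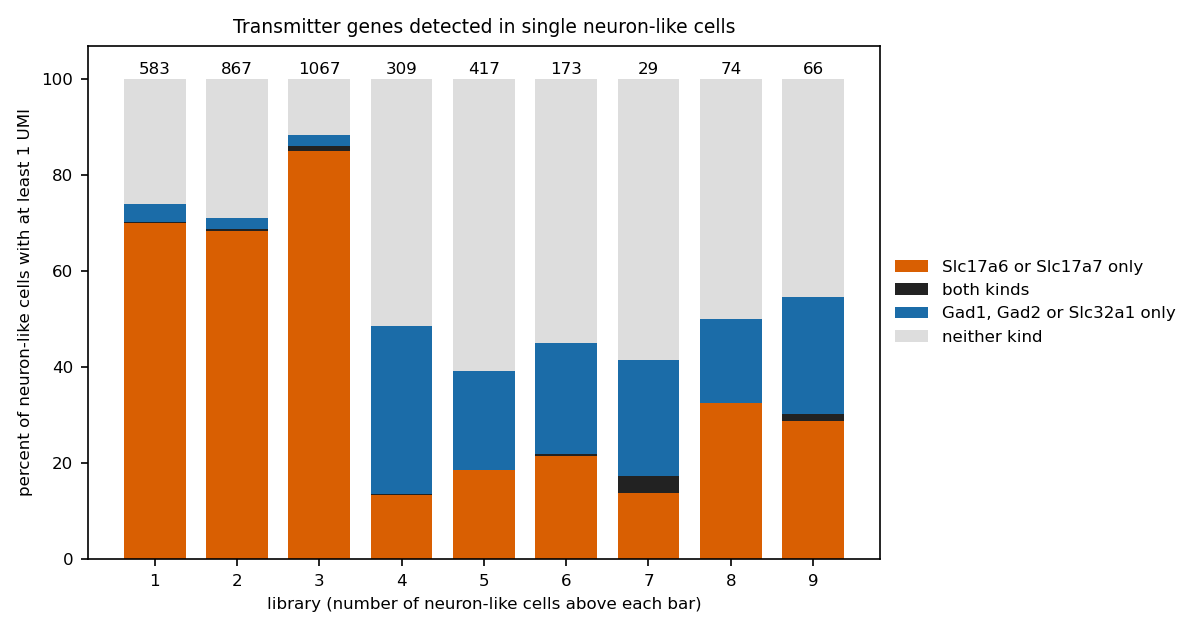
Percent of neuron-like cells (vertical axis) with at least 1 UMI of *Slc17a6* or *Slc17a7* only, of *Gad1*, *Gad2* or *Slc32a1* only, of both kinds or of neither, in libraries 1 to 9 (horizontal axis). Cells with both kinds are at most 3.45% in any library, 1 of 29 cells in library 7.

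Genes whose level followed a member over 11 listed types of at least 15 cells were sought among 5003 genes by Pearson's r of log2(CPM + 10), a description in which all points share 1 library and differ in depth. *Slc1a2* was most like *Pfkm*, *Ttyh1* and *Vegfa* (r from 0.93 to 0.94), *Slc1a3* most like *Nip7*, *Serpine2* and *Grin2c* (0.89 to 0.90), and *Slc6a11* most like *Atp13a4*, *Ntsr2* and *Gm3764* (0.94). For *Glul* the nearest were *Nfat5* (0.88), *Tpcn1* (0.80) and *Ptpra* (0.75). *Slc17a6* was most like *Cdk5r2* and *Sept3*, and *Slc32a1* most like *Tmem179*, *Ptchd1* and *Spock3*, all with r of at least 0.99, which rests on 10 to 34 UMIs of each of these genes, nearly all from neurons. *Slc17a7*, *Gad1* and *Gad2* had fewer than 20 UMIs in the listed cells and were not compared.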

How the data were processed

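Cells of 9 libraries (1 per region and sleep group, 3 pooled mice each) were measured by 10x Chromium v2 chemistry. The authors deposited raw UMI counts per gene and cell, which the submitters' processing notes tie to Cell Ranger 2.2.0, R 3.5.3 and GRCm38, and the annotation release is not given in the sources used here. The 9 genes, the pathway and marker lists were chosen with earlier results of these data known. The 9 genes are described in full, other pathway genes where they were past the 4-fold line or among the 2 of their role with the highest CPM, and the 3 most alike genes of each member with at least 20 UMIs. Some genes that this rule names are not reported here. Cell types of library 7 came from the study's list, used here in part (1999 of its 3731 cells).

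All cells were clustered together (10000 counts per cell, log, 2000 variable genes, 13 principal components, 20 neighbours, Leiden resolution 1). A cluster took a name when 3 or more of the markers on its list were 2-fold higher and present in 10% of its cells. With no marker among its 10 leading genes, more than 50% of the list had to pass, a condition set after the clusters were seen. Steps were tested on simulated data, in which 8-fold changes were recovered for 79% of 200 changed genes among 11534 for astrocytes and 95.5% of 200 among 11592 for neurons, and 2-fold changes for 0% of 200 in both. Thinning to 500 UMIs left out shallower cells, keeping 840 of 2575 in library 1. Scrublet (scanpy 1.11.5) was run per library and all cells were kept. Python 3.11.15, scipy 1.17.1, leidenalg 0.10.2, scikit-learn 1.9.0.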

Additional observations from a re-analysis of the deposited data

How the results depend on the processing

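No paired analysis across regions was run, because 8 of the 9 libraries have no region or sleep group here, and no test was run. Leaving out a replicate was not possible, since each group is 1 library. Counts past the 4-fold line moved as follows. With genes of at least 50 UMIs, 0 of 9 members were past it in listed neurons instead of 5, because no neuronal member had that many, and of the other pathway genes 4 instead of 11 in astrocytes and 8 instead of 20 in neurons, with 15 tested instead of 34. With 1 CPM added to both sides, 9 members instead of 5 differed between libraries over all cells, beside 36.7% of all genes, and 5 instead of 3 in astrocyte-like cells, beside 85%. Without libraries 4, 5 and 6, an alternative chosen after seeing the data, 3 differed over all cells. Thinning lowered the neuron-like cells with both transmitters from 22 to 8. Under the other alternatives run, these counts stayed within 1.5 times.

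The highest listed type was kept under the alternatives run, except for *Glul* with cells of at least 1000 UMIs, and *Slc17a7* with clusters in place of listed types, where listed glutamatergic cells fall in an unnamed cluster. The highest library was kept by 3 of 9 members with cells of at least 1000 UMIs (*Slc1a2*, *Gad1* and *Gad2*), by 7 of 9 with the mean over cells (not *Gad1* and *Slc32a1*) and by 8 of 9 without the hormone genes (not *Slc32a1*). Without the hormone genes 23 of 81 library values moved outside the interval, all higher, by up to 1.60 times, and 7 members instead of 5 were past the 4-fold line, with *Slc17a6* and *Gad2* added, beside 11.2% of genes. With the lowest level of any deep listed type subtracted as free RNA, 8 of 108 listed levels moved, all of them *Glul* and lower, to 1152 CPM in endothelial cells, 760 CPM in microglia and 0 in VSMCA, which set the subtracted level. The same level of a gene is taken from every type, so this alternative could not change which type was highest. Shares thinned to 500 UMIs moved outside the interval for 65 of 81 library values, 61 of them lower. With cells of at least 1000 UMIs, 55 of 81 library values moved outside the interval, 45 of them lower (0.124 to 1.78 times the value reported), and so did 44 of 81 astrocyte-like values, 33 of them lower (0 to 3.85 times). The mean over cells moved 52 of 81 library values (0.476 to 1.67 times), and Leiden resolution 0.5 moved 9 of 81 neuron-like values (0.426 to 18.9 times where the value reported was above 0), among them *Slc17a7* in libraries 7 to 9, at 72.05, 124.8 and 157.6 CPM. Neuron-like values of libraries 7, 8 and 9 rest on 29 to 74 cells and astrocyte-like values of library 6 on 15.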

Other observations

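The libraries fell apart in 2 sets by *Slc17a7* over all cells, with 682, 731 and 839 CPM in libraries 1, 2 and 3 and 1.01, 0, 1.64, 3.82, 11.9 and 10.5 CPM in libraries 4 to 9. *Slc6a11* in astrocyte-like cells parted them the same way, with 269.5, 241 and 239 CPM against 1353, 1489.5, 891, 1979, 2086 and 1444.5 CPM. The share of all genes that part the libraries in these sets is not given here. The region and sleep group of these libraries other than 7 are not known here.

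An unnamed cluster of 657 cells led by *Col25a1*, *Rax* and *Col23a1*, with 243, 223 and 183 cells in libraries 4, 5 and 6 and at most 4 in any other, carried astrocytic genes at lower levels than astrocyte-like cells. *Slc1a3* stood at 546 CPM (489 to 609) in 36.4% of its cells, *Glul* at 500 CPM (445 to 560), *Slc1a2* at 273 CPM (233 to 318) and *Slc6a11* at 217 CPM (181 to 257), while *Gad1*, *Slc17a7* and *Slc32a1* gave 0 UMIs. In the microglia-like cells of libraries 4, 5 and 6, *Slc6a11* stood at 160 (85.3 to 274), 180 (82.2 to 341) and 33.2 CPM. There *Slc1a2* stood at 74.0, 379 (228 to 592.5) and 33.2 CPM. For these 2 genes the part of RNA from other cells in the level of the cluster was not tested.

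The glycine transporter *Slc6a5*, looked at after the values were seen, gave a UMI in 27 of all cells, of which 14 lay in the unnamed cluster led by *Syt2*. *Slc32a1*, which loads glycine as well as GABA, was found in 12 of the 27, a decarboxylase in 3 and a vesicular glutamate transporter in 0.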
